A study of Homo sapiens with 22 samples.

Results

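The 8 genes described here are S100B, SOX10, PMP22, GFAP, SOX2, SOX9, NES and CRYAB, which are used as markers of Schwann cells, other glia and neural stem cells. They were chosen by symbol from the 35237 gene rows of a table of raw read counts, and all 8 were found. The table covers 22 RNA-seq libraries in 6 groups, made from SK-N-AS and GIMEN cells, a pair of human neuroblastoma lines with a mesenchymal label. The cells received PP121, an inhibitor of tyrosine kinases and phosphoinositide 3-kinases, and bufalin, a cardiac glycoside that blocks the sodium pump. Untreated SK-N-AS cells grew in DMEM with 10% fetal bovine serum (n = 4). In stage 1 they were given 5 µM PP121 for 4 days in DMEM with 1% serum (S1D4, n = 4). In stage 2 these cells were moved to Neurobasal medium with the B27 supplement and given 5 µM PP121 with 100 nM bufalin. They were harvested after 4 days of stage 2 (S2D4, n = 4) or after 30 days of it (S2D30, n = 4). Untreated GIMEN cells grew in RPMI with 10% serum (n = 3), and treated GIMEN cells were given 2.5 µM PP121 with 10 nM bufalin for 30 days in RPMI with 1% serum (D30, n = 3). Medium and serum changed together with the compounds, so their parts in any difference cannot be told apart. The labels do not say that replicates were separate cultures, and p-values therefore measure the spread between these libraries only.

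Schwann cells are the glia of peripheral nerves and, like the sympathetic neuroblasts from which neuroblastoma arises, descend from the neural crest. SOX10 is needed for the specification of peripheral glia, SOX9 acts in neural crest and in the start of gliogenesis, and SOX2 maintains neural stem cells and marks immature Schwann cells. S100B, PMP22 and GFAP are products of differentiated or reactive glia, nestin (NES) is the intermediate filament of neural progenitors, and CRYAB is a chaperone of glia and muscle.

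Of the 8 genes, NES, SOX2 and PMP22 have entries in the RefSeq promoter table (build GRCh38.p14). PMP22 has 3 separate start sites there, which a count per gene adds together. The windows of 200 bases lie before the start of NES, the member with the highest level in SK-N-AS, and before the third start of PMP22, which was tested in both lines and called in GIMEN only. The NES window is chr1:156677408-156677607 and that of PMP22 is chr17:15260821-15261020, both on the minus strand and written 5′ to 3′, with capitals for GC boxes (GGGCGG on either strand).
NES: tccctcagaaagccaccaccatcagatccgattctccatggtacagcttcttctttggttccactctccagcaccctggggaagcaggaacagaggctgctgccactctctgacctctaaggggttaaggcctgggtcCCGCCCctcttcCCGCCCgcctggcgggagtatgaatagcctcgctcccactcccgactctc
PMP22: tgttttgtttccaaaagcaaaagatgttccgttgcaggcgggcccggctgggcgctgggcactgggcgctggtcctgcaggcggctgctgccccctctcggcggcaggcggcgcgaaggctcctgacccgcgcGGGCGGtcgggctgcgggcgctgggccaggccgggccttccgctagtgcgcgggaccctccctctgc
The NES window held 2 GC boxes and the PMP22 window 1, and 40.1% of all 35114 promoter windows of this length held at least 1. Neither window held a TATA box (TATAAA, in 8.59% of windows), a CCAAT box (CCAAT, in 28.0%), an AP-1 site (TGANTCA, in 5.38%) or a SOX site (ACAATG, in 7.54%), each searched on both strands. Of the other PMP22 starts, the first had 1 CCAAT box and no GC box before it, and the second 1 GC box. These matches describe letters only. The bases just after the NES start and the third PMP22 start were found in no GENCODE transcript of the gene. Those after the other PMP22 starts were found. The GC content was 60.0% before NES and 73.0% before the third PMP22 start, against a median of 59.0% over all windows. It was 47.5% and 62.5% before the other PMP22 starts.

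The total count per library ran from 16456484 to 37506800. Levels are given as CPM, the count scaled to library size with TMM factors over all 22 libraries. Groups with at most 3 counts of a gene in each library were taken as under detection for it, and 3 counts correspond to 0.08 to 0.182 CPM. No member was under detection in all 6 groups. SOX9, NES, PMP22 and GFAP were above 3 counts in all 22 libraries. CRYAB passed 3 counts in 10 of 22 libraries, S100B in 9, SOX2 in 8 and SOX10 in 5. SOX2 was under detection in 3 groups, S100B and CRYAB in 2 each and SOX10 in 1. SOX10 never exceeded 6 counts and SOX2 never exceeded 7, so neither was tested. In bulk RNA, fewer cells with a transcript and less transcript per cell cannot be told apart.

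**Figure D1:**
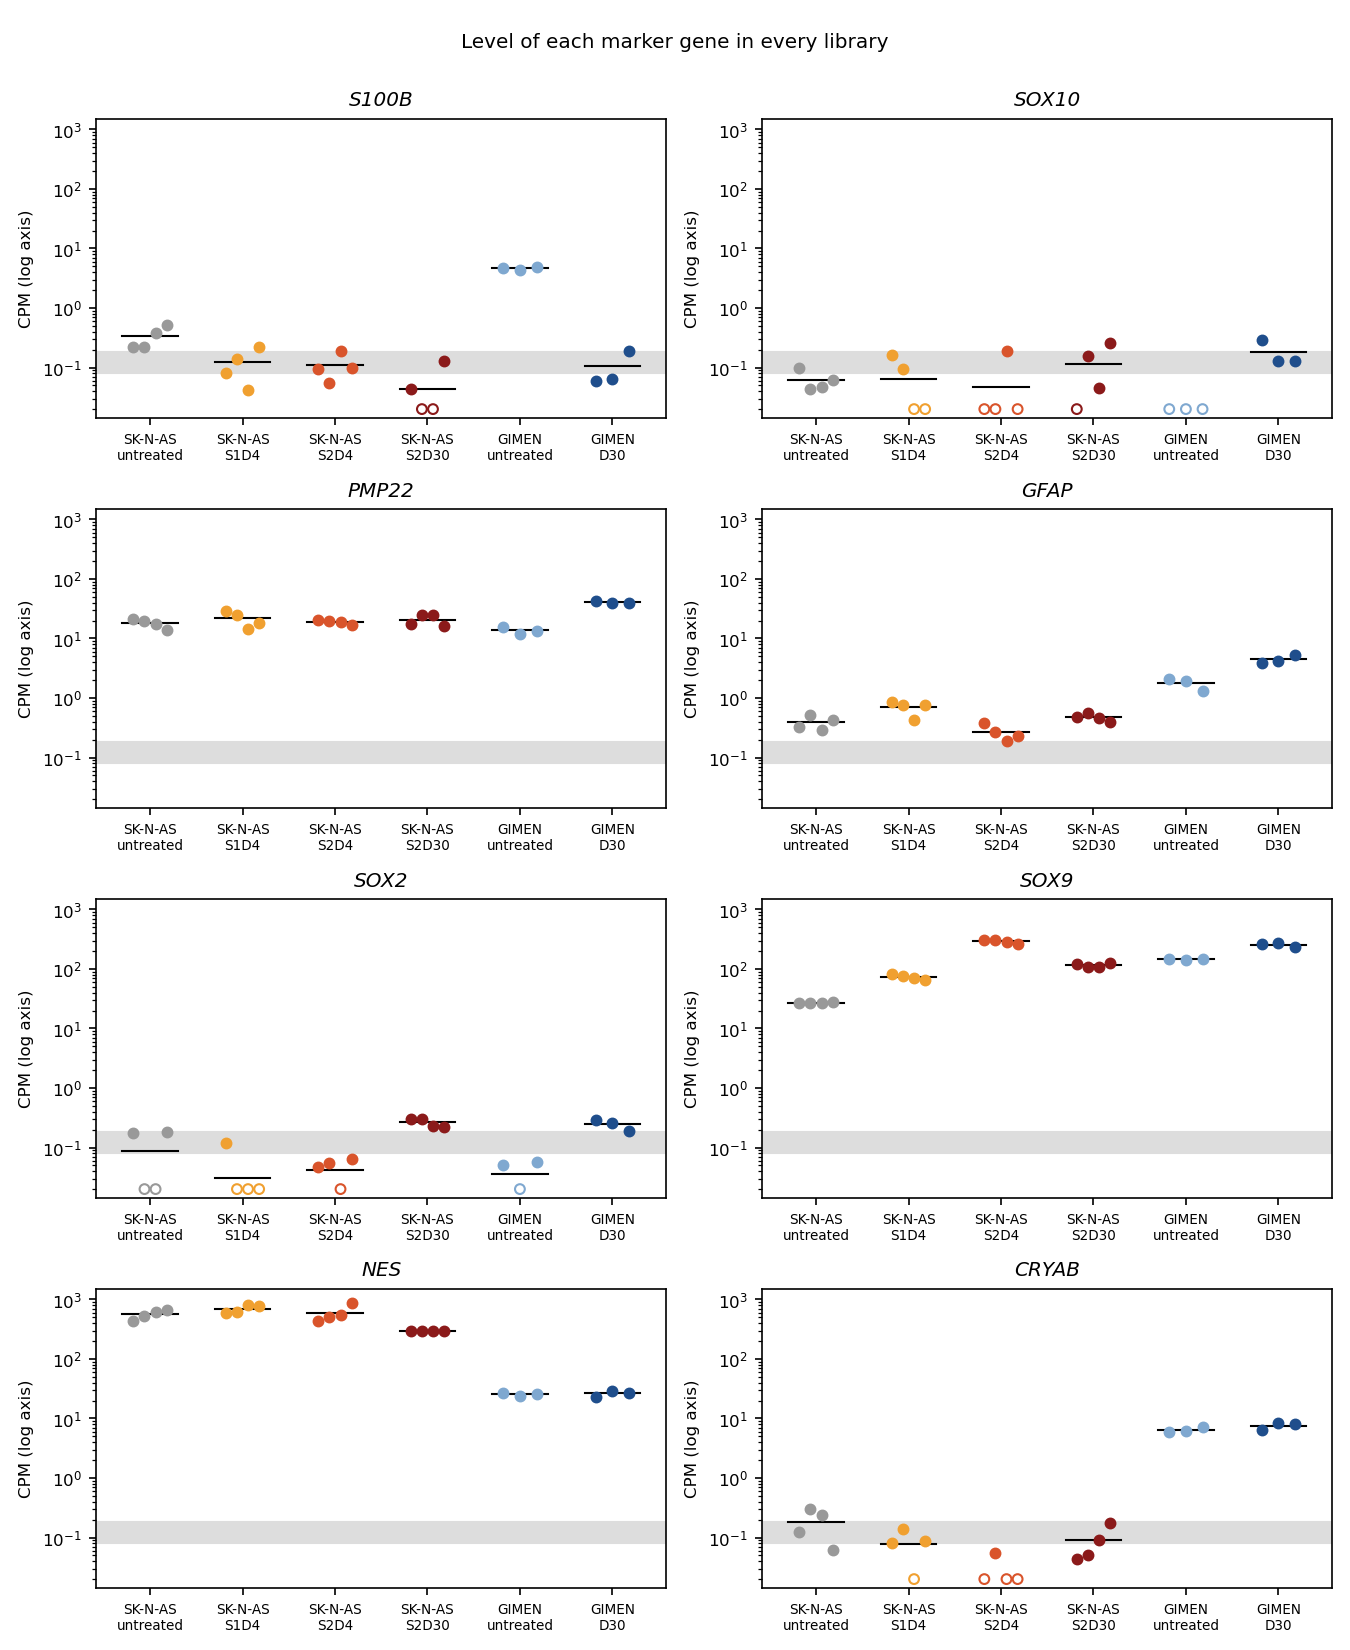
CPM of each gene in every library on a log axis, with 1 panel per gene and the groups along the x axis. Points are libraries, black bars are group means, open circles are libraries with 0 counts and the grey band is the CPM that 3 counts correspond to. SOX9, NES and PMP22 lie far above the band in all 6 groups, while SOX10 and SOX2 lie around or below it. In the 30-day groups every SOX2 library lies just above the band, at 0.193 to 0.307 CPM.

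Levels were compared between genes per kilobase of transcript, using the principal transcript of each gene in the GENCODE annotation. In untreated SK-N-AS cells NES stood at 101 CPM per kilobase, PMP22 at 9.69 and SOX9 at 6.87, and the other 5 members were below 1. In untreated GIMEN cells the order was SOX9 at 36.8, PMP22 at 7.35, CRYAB at 5.72, S100B at 5.33 and NES at 4.57 CPM per kilobase. Nestin thus dominated the set in SK-N-AS and SOX9 in GIMEN.

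Changes were tested with edgeR's quasi-likelihood test and called at a Benjamini-Hochberg adjusted p under 0.05 over all genes. In SK-N-AS, 4 members had enough counts to be tested (SOX9, NES, PMP22 and GFAP), and in GIMEN 6 had (these and S100B and CRYAB). In S1D4 against untreated cells 2 of 4 were called higher and 0 lower, where 17.6% of all tested genes were called higher and 22.4% lower. In S2D4 against untreated cells 1 of 4 was higher and 0 lower, against 30.9% and 32.2% of all genes. In S2D30 against untreated cells 1 of 4 was higher and 1 lower, against 33.8% and 36.5%. From S1D4 to S2D4 1 was higher and 1 lower, against 28.3% and 26.8%, and from S2D4 to S2D30 0 were higher and 2 lower, against 24.4% and 26.9%. In treated against untreated GIMEN cells 3 of 6 were higher and 1 lower, against 35.5% and 36.0%. Calls were thus common among genes at large, and with 4 to 6 members tested these counts are no result about the members as a set. The SK-N-AS comparisons with untreated cells share the same untreated libraries.

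**Figure D2:**
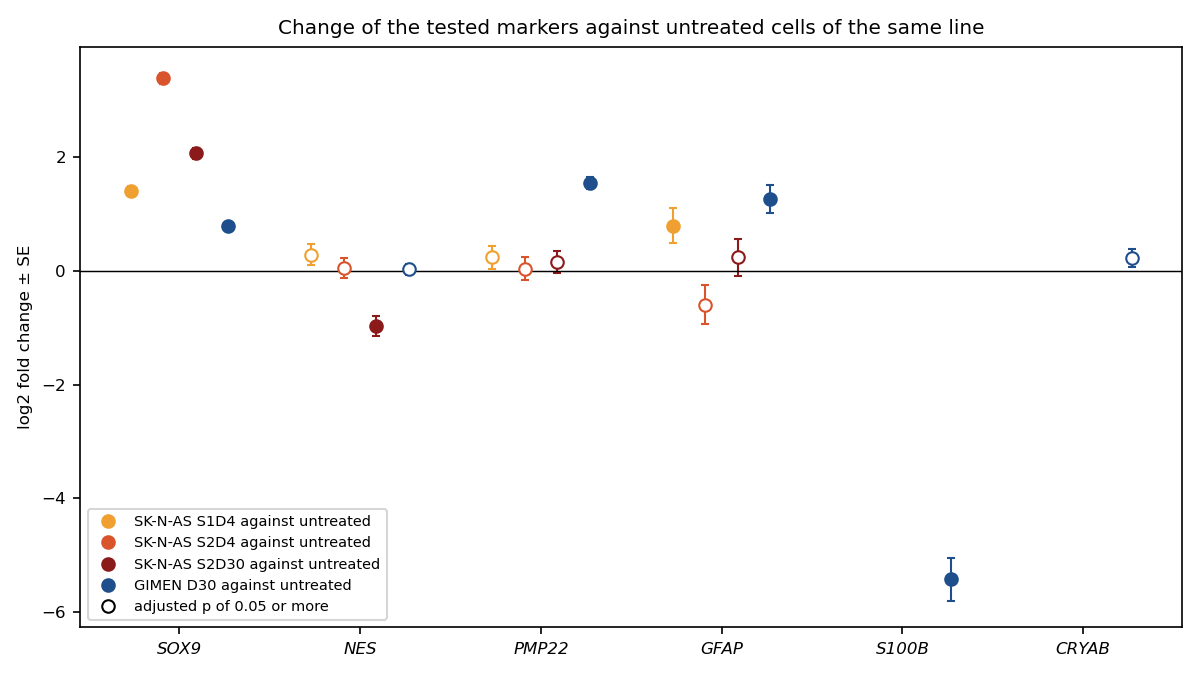
Log2 fold change with its standard error (y axis) of each tested member (x axis) against untreated cells of the same line, with 1 colour per comparison. Filled points had an adjusted p under 0.05. SOX9 is above 0 in all 4 comparisons, and S100B in GIMEN is the lowest point at -5.43.

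SOX9, a transcription factor of neural crest, gliogenesis and cartilage, rose in every treated group. In untreated SK-N-AS cells it stood at 26.9, 26.6, 26.4 and 28.1 CPM in replicates 1 to 4. In S1D4 it stood at 81.3, 76.0, 69.4 and 65.0 CPM, in S2D4 at 306, 306, 288 and 264 CPM, and in S2D30 at 122, 110, 106 and 126 CPM. No library of 1 SK-N-AS group overlapped another group, and the level was highest at day 4 of stage 2. Against untreated cells the log2 fold change was 1.41 (SE 0.09, edgeR adjusted p = 7.29e-09) in S1D4, 3.39 (SE 0.09, adjusted p = 7.51e-14) in S2D4 and 2.07 (SE 0.09, adjusted p = 4.29e-12) in S2D30. These are 2.65-fold, 10.5-fold and 4.19-fold higher levels. SOX9 rose by a log2 value of 1.99 from S1D4 to S2D4 (SE 0.09, adjusted p = 7.19e-11) and fell by 1.33 on the log2 scale from S2D4 to S2D30 (SE 0.08, adjusted p = 2.99e-09).

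In GIMEN cells SOX9 stood at 145, 143 and 146 CPM untreated and at 260, 271 and 238 CPM after 30 days. The groups did not overlap, and the log2 fold change was 0.80 (SE 0.06, adjusted p = 4.47e-07), or 1.74-fold. Untreated GIMEN cells already held 5.42 times the SOX9 level of untreated SK-N-AS cells, a log2 difference of 2.44 (SE 0.08, adjusted p = 5.06e-14). The 30-day rise was smaller in GIMEN than in SK-N-AS, with a difference of changes of -1.25 on the log2 scale (SE 0.11, adjusted p = 1.05e-07). Dose, medium, serum and the first stage differed between the treatments of the lines, and the part of each cannot be told apart from that of the line. Ordered by mean CPM, S2D4 SK-N-AS (291) and treated GIMEN (256) overlapped in range, and the other neighbours, untreated GIMEN (145), S2D30 (116), S1D4 (72.9) and untreated SK-N-AS (27), did not.

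SOX10, the lineage factor of Schwann cells and melanocytes, stayed near the counting limit. Untreated SK-N-AS libraries held 4, 1, 1 and 2 counts, S1D4 libraries 4, 2, 0 and 0, S2D4 libraries 0, 0, 4 and 0, and S2D30 libraries 0, 3, 1 and 6. Untreated GIMEN libraries held 0, 0 and 0 counts and treated ones 5, 2 and 2. The SK-N-AS groups overlapped. The GIMEN groups did not overlap, and without a filter on low counts the gene had an edgeR adjusted p of 0.023 there, at counts that support no fold.

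SOX2, the stem cell factor, held 7, 0, 0 and 6 counts in untreated SK-N-AS libraries, 3, 0, 0 and 0 in S1D4, 1, 1, 0 and 2 in S2D4 and 7, 6, 5 and 5 in S2D30. In GIMEN it held 1, 0 and 1 counts untreated and 5, 4 and 3 after treatment. The 30-day groups of both lines were thus the ones in which every library held at least 3 counts. In CPM they did not overlap the untreated groups. S2D30 libraries held 0.217 to 0.307 CPM against 0 to 0.183 in untreated SK-N-AS cells. Treated GIMEN libraries held 0.193 to 0.294 CPM against 0 to 0.0565 untreated. Without a filter on low counts the edgeR adjusted p was 0.217 in S2D30 against untreated SK-N-AS cells and 0.0858 in GIMEN. No change was thus called, at counts that support no fold.

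Among the 17 other SOX genes of the list, 10 had enough counts in SK-N-AS, and 4 were higher and 6 lower in S2D30. Their median log2 fold change was -0.61, against -0.03 over all genes tested. Of all genes tested, 33.8% were called higher and 36.5% lower in S2D30, and 35.5% and 36.0% in GIMEN. These shares also stand beside the counts of the other families below, and no family was tested as a set. SOX8 forms the SoxE subgroup with SOX9 and SOX10. It went from at most 0.0437 CPM untreated to between 3.67 and 5.22 CPM in S2D30 (adjusted p = 3.28e-05). SOX8 passed the filter on low counts through treated groups alone, so its test against untreated cells was not independent of the filter. SOX18, a factor of vascular endothelium, fell from between 8.24 and 25.1 CPM to at most 0.351 CPM, a log2 fold change of -6.25 (SE 0.49, adjusted p = 6.54e-09). SOX11, a SoxC factor of immature neurons, fell from between 252 and 284 CPM to between 65.2 and 86.0 CPM, or by 1.88 on the log2 scale (SE 0.11, adjusted p = 2e-10). SOX13 rose by a log2 value of 0.95 (SE 0.21, adjusted p = 0.000588). In GIMEN 5 were tested, 3 were higher and 2 lower, with a median of 0.25 against 0.02 over all genes. SOX15 (0.95, SE 0.20, adjusted p = 0.00133) and SOX6 (0.71, SE 0.16, adjusted p = 0.00166), a partner of SOX9 in cartilage, rose on the log2 scale there. SOX12 (-0.70, SE 0.08, adjusted p = 1.35e-05) and SOX11 (-0.40, SE 0.09, adjusted p = 0.00197) fell.

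NES encodes nestin, a long intermediate filament protein of neural progenitors that is also made by many tumour cells. Untreated SK-N-AS libraries held 432, 519, 620 and 666 CPM and S1D4 libraries 594, 605, 809 and 765 CPM. S2D4 libraries held 440, 501, 544 and 883 CPM, and S2D30 libraries 293, 294, 292 and 294 CPM. All 4 S2D30 libraries were below every other SK-N-AS library, and the other 3 groups overlapped. NES was 1.95-fold lower in S2D30 than in untreated cells, a log2 fold change of -0.97 (SE 0.18, adjusted p = 0.000172), and 2.02-fold lower than in S2D4 (-1.01, SE 0.18, adjusted p = 0.000216). The log2 fold change against untreated cells was 0.29 in S1D4 (SE 0.18, adjusted p = 0.231) and 0.05 in S2D4 (SE 0.18, adjusted p = 0.833).

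Replicate 4 of S2D4, at 883 CPM of NES, was also the library of that group least like the others over all genes (mean correlation of 0.968 with them). Without it, the difference of S2D4 from S1D4 went from -0.24 (SE 0.18, adjusted p = 0.283) to -0.49 (adjusted p = 0.00502), and that of S2D30 from S2D4 was -0.76. In the untreated and S1D4 groups, replicates 3 and 4 had more NES and less PMP22 than replicates 1 and 2. With a term for this split, NES in S1D4 kept a log2 fold change of 0.29 (adjusted p = 0.111).

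In GIMEN cells NES was low, at 27.3, 23.5 and 25.4 CPM untreated and 23.4, 28.9 and 27.2 CPM after treatment. The groups overlapped, with a log2 fold change of 0.03 (SE 0.10, adjusted p = 0.766). Untreated GIMEN cells held 21.7-fold less NES than untreated SK-N-AS cells, a log2 difference of -4.44 (SE 0.14, adjusted p = 2.7e-14). The 30-day changes differed between the lines by 1.02 on the log2 scale, GIMEN minus SK-N-AS (SE 0.17, adjusted p = 9.3e-05).

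GFAP, the intermediate filament of astrocytes and of some Schwann cells, was counted at 4 to 21 reads per SK-N-AS library and 23 to 81 per GIMEN library. Untreated SK-N-AS libraries held 0.322, 0.525, 0.286 and 0.427 CPM, and S1D4 libraries 0.844, 0.753, 0.422 and 0.754 CPM. S2D4 libraries held 0.373, 0.271, 0.188 and 0.227 CPM, and S2D30 libraries 0.483, 0.563, 0.453 and 0.391 CPM. S1D4 and untreated libraries overlapped, and S1D4 and S2D4 libraries did not. GFAP was called higher in S1D4 with a log2 fold change of 0.80 (SE 0.31, adjusted p = 0.0493), a call that was lost in 16 of 24 alternative analyses (DESeq2 adjusted p = 0.107). It was 2.62-fold lower in S2D4 than in S1D4 (-1.39, SE 0.33, adjusted p = 0.00209). Against untreated cells the values were -0.59 in S2D4 (SE 0.34, adjusted p = 0.146) and 0.24 in S2D30 (SE 0.32, adjusted p = 0.518).

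Untreated GIMEN libraries held 2.11, 1.96 and 1.30 CPM of GFAP and treated ones 3.88, 4.25 and 5.20 CPM. The groups did not overlap, and GFAP was 2.41-fold higher after treatment (log2 1.27, SE 0.25, adjusted p = 0.000715). It was 4.64-fold higher in untreated GIMEN than in untreated SK-N-AS cells (log2 2.21, SE 0.29, adjusted p = 2.89e-06). The difference of the 30-day changes, 1.05 on the log2 scale (SE 0.42, adjusted p = 0.0459), was lost in 14 of 21 alternative analyses.

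The GFAP transcript lies for 34.1% of its length opposite CCDC103 and FAM187A, genes of the other strand that were named after their values were seen. Whether the reads were counted by strand is not stated. CCDC103 stood at mean levels of 3.87, 5.92, 1.84 and 4.16 CPM in untreated, S1D4, S2D4 and S2D30 SK-N-AS cells and at 11.9 and 31.1 CPM in untreated and treated GIMEN cells. FAM187A stood at 4.45, 6.81, 1.89, 5.28, 21.3 and 50.1 CPM in the same order. Across the 6 groups both had the same order of means as GFAP, and both were above it in each. In GIMEN their log2 fold changes were 1.36 (SE 0.08, adjusted p = 6.8e-08) and 1.21 (SE 0.12, adjusted p = 2.96e-06), and from S1D4 to S2D4 they were -1.72 (SE 0.25, adjusted p = 2.68e-05) and -1.87 (SE 0.22, adjusted p = 2.13e-06). GFAP reads and reads of these neighbours cannot be told apart here.

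Among the 9 other intermediate filament genes, 8 were tested in SK-N-AS, of which 2 were higher and 6 lower in S2D30 (median log2 fold change -0.91). VIM, vimentin of mesenchymal and many cultured cells, rose from between 648 and 1200 CPM to between 2510 and 3150 CPM (log2 1.57, SE 0.21, adjusted p = 4.18e-06). NEFM, the medium neurofilament, rose by a log2 value of 0.77 (SE 0.15, adjusted p = 0.000244). NEFL and NEFH, the light and heavy neurofilaments of axons, fell by 3.22 (SE 0.25, adjusted p = 7.07e-09) and 2.77 (SE 0.48, adjusted p = 7.84e-05) on the log2 scale. In GIMEN 4 were tested, 1 was higher and 2 lower (median -0.45). There VIM fell by 1.04 (SE 0.10, adjusted p = 2.34e-06) and SYNC by 1.41 (SE 0.20, adjusted p = 6.9e-05) on the log2 scale. SYNM, synemin, had a log2 fold change of 0.24 (SE 0.07, adjusted p = 0.00851), which without untreated GIMEN replicate 2 was 0.20 (adjusted p = 0.0544).

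S100B, a calcium-binding protein of Schwann cells and astrocytes, fell out of detection in treated GIMEN cells. Untreated GIMEN libraries held 91, 90 and 87 counts, or 4.69, 4.42 and 4.92 CPM. Treated libraries held 1, 1 and 3 counts, or 0.0587, 0.0635 and 0.193 CPM. The groups did not overlap, and the log2 fold change was -5.43 (SE 0.38, adjusted p = 1.79e-07). S100B passed the filter on low counts through the untreated group alone, and the ratio of summed counts, scaled for depth, was 43.2 with an exact 95% interval of 18.3 to 134 for counting error.

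In SK-N-AS cells S100B held 9, 5, 8 and 17 counts untreated, 2, 3, 1 and 5 in S1D4, 2, 1, 4 and 3 in S2D4 and 1, 0, 0 and 3 in S2D30. It had too few counts for the filter, and each S2D30 library was below each untreated library. Summed counts, scaled for depth, were 7.99 times higher untreated than in S2D30 (exact 95% interval 2.88 to 30.8 for counting error), and without the filter the edgeR adjusted p was 0.00507. Untreated GIMEN cells held 13.9-fold more S100B than untreated SK-N-AS cells (log2 3.80, SE 0.40, adjusted p = 1.79e-07), in a fit that the gene entered through its GIMEN counts. The difference between the 30-day changes of the lines was -2.67 on the log2 scale with an SE of 1.17 and did not pass the test (adjusted p = 0.0687). It was called in 5 of 21 alternative analyses, namely with DESeq2 (adjusted p = 0.0418) and without untreated SK-N-AS replicate 4 (-2.98), S2D30 replicate 2 (-3.01), S2D30 replicate 3 (-3.05) or treated GIMEN replicate 3 (-3.39). Without S2D30 replicate 4, which holds 3 of the 4 counts of that group, it was -1.40 (adjusted p = 0.655).

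The other 18 S100 genes did not follow 1 direction. In SK-N-AS 11 were tested, of which 5 were higher and 3 lower in S2D30 (median log2 fold change 0.25). S100A9, a subunit of calprotectin in myeloid cells, went from at most 0.0437 CPM to between 7.25 and 13.4 CPM (adjusted p = 4.5e-07). This gene passed the filter on low counts through treated groups alone, so its test was not independent of the filter. S100A11 rose from between 59.7 and 130 CPM to between 295 and 390 CPM (log2 1.78, SE 0.17, adjusted p = 1.04e-07). S100A4, linked to cell motility, fell by 1.68 (SE 0.32, adjusted p = 0.000174) and S100A13 by 1.56 (SE 0.27, adjusted p = 6.91e-05) on the log2 scale. In GIMEN 9 were tested, 1 was higher and 5 lower (median -0.48). S100A3 rose by a log2 value of 0.67 (SE 0.20, adjusted p = 0.0105), while S100A16 (-1.17, SE 0.09, adjusted p = 3.89e-07) and S100A13 (-1.04, SE 0.10, adjusted p = 2.16e-06) fell.

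PMP22 encodes a membrane protein of compact peripheral myelin that is also made at lower levels by many non-neural cells. Untreated SK-N-AS libraries held 21.0, 19.7, 17.6 and 14 CPM and S1D4 libraries 29.5, 24.7, 14.7 and 18.2 CPM. S2D4 libraries held 20.3, 19.9, 18.9 and 17.1 CPM, and S2D30 libraries 17.5, 24.4, 24.8 and 16.1 CPM. All 4 SK-N-AS groups overlapped. Log2 fold changes against untreated cells were 0.24 in S1D4 (SE 0.20, adjusted p = 0.362), 0.04 in S2D4 (SE 0.20, adjusted p = 0.877) and 0.16 in S2D30 (SE 0.20, adjusted p = 0.486).

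In GIMEN cells PMP22 stood at 15.8, 11.7 and 13.5 CPM untreated and 42.7, 39.6 and 40.2 CPM after treatment. The groups did not overlap, and PMP22 was 2.93-fold higher (log2 1.55, SE 0.10, adjusted p = 1.33e-07). The 30-day change was larger in GIMEN than in SK-N-AS by 1.41 on the log2 scale (SE 0.24, adjusted p = 0.000118). Between the untreated lines the difference of -0.39 (SE 0.17, adjusted p = 0.0525, GIMEN minus SK-N-AS) was not called, and it was called in 9 of 20 alternative analyses. The counts do not separate the 3 start sites of PMP22.

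Of the 6 related membrane proteins, EMP1 and EMP2 changed in opposite directions in both lines. EMP1 rose from between 0.885 and 6.26 CPM to between 147 and 159 CPM in S2D30 (log2 5.46, SE 0.40, adjusted p = 2.92e-09), and by a log2 value of 0.74 in GIMEN (SE 0.12, adjusted p = 0.000209). EMP2 fell from between 78.2 and 88.8 CPM to between 15.5 and 16.2 CPM in S2D30 (log2 -2.42, SE 0.11, adjusted p = 8.68e-12), and by 0.46 on the log2 scale in GIMEN (SE 0.07, adjusted p = 0.00011). The other tested members were not called, 2 of 4 in SK-N-AS and 1 of 3 in GIMEN.

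CRYAB, alpha-B crystallin, is a small heat shock protein that holds unfolding proteins, including GFAP filaments. It held 114, 125 and 127 counts in untreated GIMEN libraries (5.88, 6.14 and 7.18 CPM) and 108, 134 and 125 counts in treated ones (6.34, 8.50 and 8.03 CPM). The groups overlapped, with a log2 fold change of 0.23 (SE 0.16, adjusted p = 0.234). In SK-N-AS it held 5, 7, 5 and 2 counts untreated, 2, 3, 0 and 2 in S1D4, 0, 1, 0 and 0 in S2D4 and 1, 1, 2 and 4 in S2D30. The gene was under detection in S1D4 and S2D4, and without the filter on low counts its adjusted p in S2D4 against untreated cells was 0.0119. Summed CRYAB counts, scaled for depth, were 31.5 times higher in GIMEN than in SK-N-AS cells before treatment (exact 95% interval 19.9 to 53.0 for counting error). CRYAB did not pass the filter in SK-N-AS and entered the fit of both lines through its GIMEN counts alone, so the fitted log2 difference of 5.23 (SE 0.34, adjusted p = 3.59e-10) describes a gene that had to differ. The difference of the 30-day changes was 1.10 (SE 0.62, adjusted p = 0.154), and without untreated SK-N-AS replicate 4 it was 1.42 (adjusted p = 0.0486). For 22.5% of its length the transcript lies opposite HSPB2, which did not exceed 0.45 CPM in any library.

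Of the 9 other genes of the small heat shock list, 6 were tested in SK-N-AS, with 2 higher and 4 lower in S2D30 (median log2 fold change -0.90), and 4 in GIMEN, with 1 higher and 3 lower (median -0.74). HSPB8, which works with the co-chaperone BAG3 in selective autophagy, rose in both lines. It went from between 0.0954 and 1.04 CPM to between 8.73 and 11 CPM in S2D30 (log2 4.08, SE 0.42, adjusted p = 2.12e-07) and from between 19.4 and 19.9 CPM to between 50.4 and 53.8 CPM in GIMEN (log2 1.40, SE 0.07, adjusted p = 1.23e-08). In SK-N-AS HSPB8 passed the filter on low counts through treated groups alone, so that test was not independent of the filter. BAG3 rose in S2D30 (log2 0.74, SE 0.10, adjusted p = 4.17e-06) and fell in GIMEN (log2 -0.25, SE 0.08, adjusted p = 0.0145). HSPB6 fell by 3.04 (SE 0.28, adjusted p = 5.94e-08) in S2D30 and by 1.22 (SE 0.10, adjusted p = 9.19e-07) in GIMEN on the log2 scale. HSPB1, the most abundant gene of the list by CPM in untreated SK-N-AS cells, fell by 0.84 in S2D30 (SE 0.12, adjusted p = 1.31e-05) and by 1.37 in GIMEN (SE 0.10, adjusted p = 2.38e-07) on the log2 scale.

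**Figure D3:**
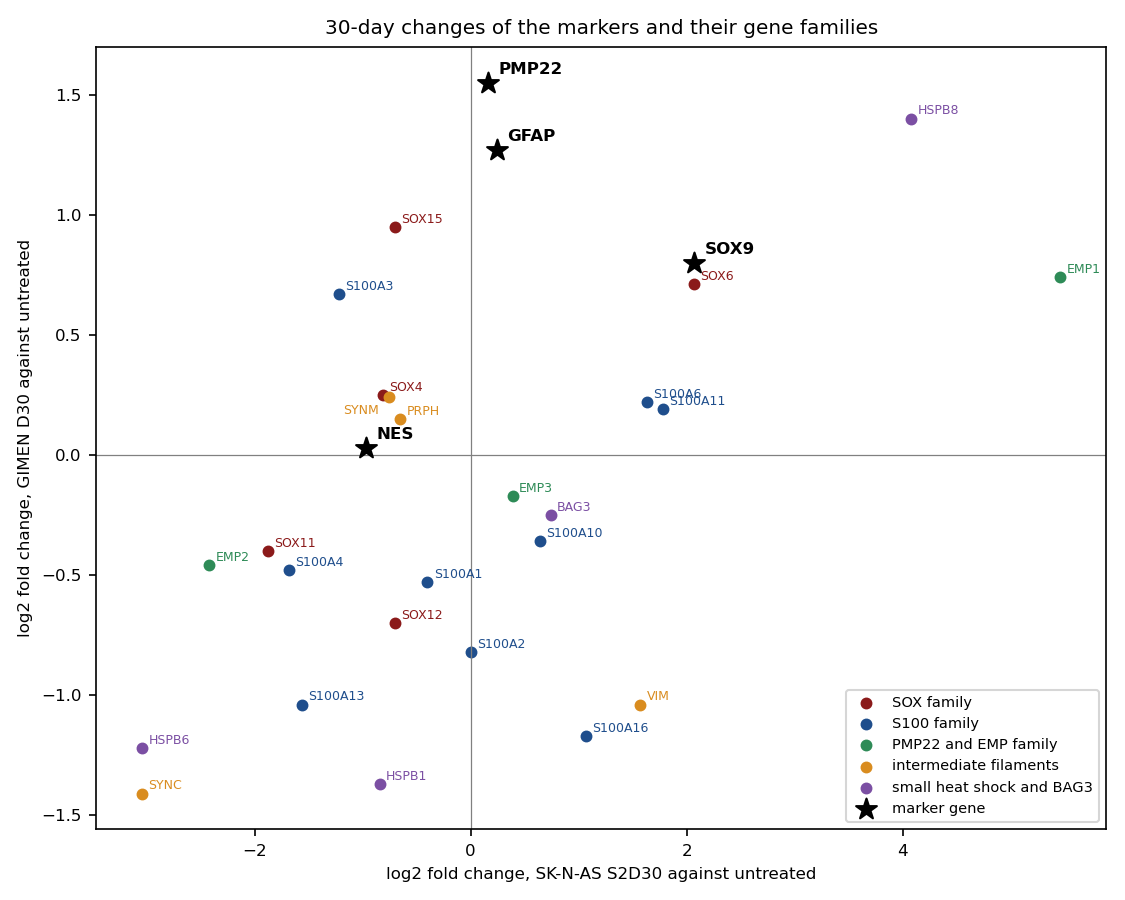
Log2 fold change after 30 days in SK-N-AS (x axis, S2D30 against untreated) and in GIMEN (y axis, D30 against untreated) for members (stars) and genes of their families (points, 1 colour per family) that were tested in both lines. PMP22 lies at 0.16 and 1.55, SOX9 at 2.07 and 0.80, and NES at -0.97 and 0.03.

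Between the untreated lines 4 of 6 tested members were higher in GIMEN (SOX9, GFAP, S100B and CRYAB) and 1 lower (NES), where 35.3% of all genes tested were called higher and 38.6% lower. S100B and CRYAB were tested there only through their GIMEN counts. The difference of the 30-day changes, GIMEN minus SK-N-AS, was called above 0 for 3 of 6 members (PMP22, GFAP and NES) and below 0 for 1 (SOX9), where 25.2% and 24.5% of all genes were called. The lines also differed in the markers of neuroblastoma state. Summed CPM of the 10 mesenchymal markers was 897 to 1400 in untreated SK-N-AS and 38600 to 40200 in untreated GIMEN libraries, and that of the 9 adrenergic markers was 1650 to 1880 and 452 to 475. In GIMEN 1 gene carried most of each sum. FN1, fibronectin, stood at 30300 to 32200 CPM in untreated GIMEN and 49.4 to 87.8 in untreated SK-N-AS libraries, and the other 9 mesenchymal markers summed to 7980 to 8290 and 810 to 1350 CPM. HAND2, a factor of sympathetic neurons, stood at 351 to 369 CPM in untreated GIMEN and 551 to 597 in untreated SK-N-AS libraries, and the other 8 adrenergic markers summed to 101 to 106 and 1100 to 1280 CPM. DBH, the enzyme that makes noradrenaline, stood at 57.3 to 99.0 CPM in untreated SK-N-AS libraries and at most 0.206 CPM in untreated GIMEN libraries. Adrenergic markers were thus present in untreated SK-N-AS cells, beside their mesenchymal label. In S2D30 DBH fell by 5.05 on the log2 scale (SE 0.67, adjusted p = 3.83e-06). There 8 of 9 adrenergic markers fell and 0 rose (median -2.77), and 9 of 10 mesenchymal markers rose and 1 fell (median 1.88), where 33.8% of all genes were called higher and 36.5% lower. CD44, a hyaluronan receptor, rose by a log2 value of 4.52 (SE 0.27, adjusted p = 2.77e-10), and FN1 was the mesenchymal marker that fell (-5.02, SE 0.47, adjusted p = 6.02e-08). In treated GIMEN cells 2 of 9 tested mesenchymal markers rose and 6 fell (median -0.54), and 1 of 5 tested adrenergic markers rose and 2 fell (median 0.16), where 35.5% and 36.0% of all genes were called. CD44 rose there by 0.59 (SE 0.11, adjusted p = 0.000356), and FOSL1, an AP-1 subunit, fell by 1.86 (SE 0.13, adjusted p = 1.68e-07) on the log2 scale. The part of these markers in the changes of the members was not tested.

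Other genes of Schwann cells and myelin were called in both directions, as were genes at large. Of all genes tested, 33.8% were called higher and 36.5% lower in S2D30, and 35.5% and 36.0% in GIMEN. These shares stand beside the counts of this list and the lists that follow, none of which was tested as a set. Of 26 listed, 16 were tested in SK-N-AS, with 7 higher and 8 lower in S2D30 (median log2 fold change -0.47 against -0.03 over all genes). EGR2, a transcription factor of myelination and of the immediate early response, went from at most 0.0742 CPM to between 15.1 and 19.4 CPM (adjusted p = 3.57e-13). TFAP2A, a neural crest and Schwann cell precursor factor, went from at most 0.0477 CPM to between 5.27 and 7.41 CPM (adjusted p = 4.34e-09). EGR2 and TFAP2A passed the filter in SK-N-AS through treated groups alone, so these tests were not independent of the filter. NGFR, the p75 receptor of crest and immature Schwann cells, fell from between 23.4 and 53.9 CPM to between 1.67 and 2.87 CPM (log2 -4.14, SE 0.58, adjusted p = 7.17e-06). GJB1, connexin of myelinating Schwann cells, held at most 3 counts in every library of the 6 groups.

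In GIMEN 11 of the 26 were tested, with 4 higher and 5 lower (median 0.48 against 0.02). EGR2 rose from between 2.32 and 2.58 CPM to between 7.45 and 10.2 CPM (log2 1.78, SE 0.18, adjusted p = 4.71e-06), and CADM4, an adhesion molecule of Schwann cells, rose by a log2 value of 1.31 (SE 0.14, adjusted p = 7.52e-06). GAP43, a growth cone protein also found in Schwann cell precursors, fell by 3.11 (SE 0.41, adjusted p = 3.35e-05) and PLLP, plasmolipin of myelin, by 0.75 (SE 0.15, adjusted p = 0.00096) on the log2 scale. GAP43 passed the filter in GIMEN through the untreated group alone.

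Of 10 genes of the repair Schwann cell, the state that follows nerve injury, 8 were tested in SK-N-AS with 3 higher and 3 lower in S2D30. LIF, a cytokine, rose from between 2.91 and 6.78 CPM to between 1400 and 2400 CPM (log2 8.70, SE 0.31, adjusted p = 7.91e-13), and RUNX2 rose by a log2 value of 2.70 (SE 0.25, adjusted p = 4.8e-08). GDNF, a neurotrophic factor, fell by 2.54 (SE 0.39, adjusted p = 1.82e-05) and the chemokine CCL2 by 2.06 (SE 0.63, adjusted p = 0.00782) on the log2 scale. In GIMEN 6 were tested with 4 higher and 1 lower. LIF rose from between 114 and 129 CPM to between 207 and 326 CPM (log2 1.09, SE 0.13, adjusted p = 1.85e-05) and BDNF by a log2 value of 0.87 (SE 0.22, adjusted p = 0.00375), while RUNX2 fell by 1.10 on the log2 scale (SE 0.10, adjusted p = 2.43e-06).

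Of 23 genes of astrocytes and radial glia, 16 were tested in SK-N-AS with 5 higher and 5 lower in S2D30 (median -0.42), and 13 in GIMEN with 8 higher and 5 lower (median 0.45). TNC, an extracellular matrix protein of radial glia and of injured tissue, rose from between 18.0 and 24.0 CPM to between 498 and 801 CPM in S2D30 (log2 5.02, SE 0.63, adjusted p = 2.17e-06). In GIMEN it rose from between 62.5 and 72.3 CPM to between 592 and 734 CPM (log2 3.29, SE 0.10, adjusted p = 1.48e-10). SLC1A3, the glial glutamate transporter, went from at most 0.0989 CPM to between 3.17 and 4.09 CPM in S2D30 (adjusted p = 1.6e-07). In SK-N-AS it passed the filter through treated groups alone, so that test was not independent of the filter. In GIMEN SLC1A3 went from between 0.509 and 0.688 CPM to between 3.55 and 4.75 CPM (log2 2.68, SE 0.28, adjusted p = 4.96e-06). There it passed the filter through the treated group alone, so this test was not independent of the filter either. PTN, pleiotrophin, fell by 3.57 in S2D30 (SE 0.23, adjusted p = 5.81e-10) and by 3.27 in GIMEN (SE 0.11, adjusted p = 4.11e-10) on the log2 scale. NFIA, a factor that acts with SOX9 in gliogenesis, fell by 2.73 in S2D30 (SE 0.11, adjusted p = 2.19e-12), and NFIX fell by 1.00 in GIMEN (SE 0.09, adjusted p = 1.47e-06), both on the log2 scale. The defining astrocyte gene AQP4, the water channel, and GJB6 held at most 3 counts in every library.

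Of 22 genes of neural stem and crest cells, 13 were tested in SK-N-AS with 6 higher and 5 lower in S2D30 (median 0.24), and 9 in GIMEN with 3 higher and 4 lower (median 0.02). MSX2, a factor of crest and its skeletal derivatives, went from at most 0.0742 CPM to between 5.39 and 5.92 CPM in S2D30 (adjusted p = 2.15e-10). It passed the filter through treated groups alone, so its test was not independent of the filter. ETS1 rose in S2D30 by a log2 value of 2.83 (SE 0.15, adjusted p = 6.8e-11). TFAP2B, a factor of the sympathetic branch of the crest, fell by 4.98 on the log2 scale (SE 0.27, adjusted p = 7.44e-11). In GIMEN MSX1 rose by a log2 value of 1.42 (SE 0.15, adjusted p = 6.57e-06). SNAI2, a factor of crest migration, fell from between 85.6 and 92.1 CPM to between 9.64 and 12.8 CPM (log2 -3.06, SE 0.10, adjusted p = 3.32e-10), and LIN28B fell by 1.61 on that scale (SE 0.23, adjusted p = 6.54e-05). HES5 and PAX7 held at most 3 counts in every library.

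Lists of oligodendrocytes, melanocytes and cartilage, which share factors with these genes, were counted in the same way. Of 12 oligodendrocyte genes 5 were tested in each line, with 1 higher and 4 lower in S2D30 and 2 higher and 2 lower in GIMEN. PDGFRA, the receptor of their precursors, rose in both lines (log2 1.42, SE 0.14, adjusted p = 1.02e-07, and 0.44, SE 0.09, adjusted p = 0.000841), and CSPG4, the NG2 proteoglycan, fell in both (-2.04, SE 0.20, adjusted p = 1.19e-07, and -0.64, SE 0.10, adjusted p = 9.27e-05). CLDN11, a claudin of central myelin, fell in S2D30 (-1.80, SE 0.40, adjusted p = 0.000644). In GIMEN BCAS1 rose (3.83, SE 0.36, adjusted p = 2e-06) and UGT8, an enzyme of myelin lipid synthesis, fell (-0.63, SE 0.16, adjusted p = 0.00441). BCAS1 passed the filter there through the treated group alone. Of 10 melanocyte genes 7 were tested in SK-N-AS with 2 higher and 2 lower, and 8 in GIMEN with 3 higher and 1 lower. GPNMB, a lysosomal glycoprotein also found in macrophages and reactive glia, rose from between 9.16 and 16.5 CPM to between 707 and 807 CPM in S2D30 (log2 5.87, SE 0.52, adjusted p = 3.17e-08) and from between 0.509 and 0.786 CPM to between 24.6 and 58.4 CPM in GIMEN (log2 5.96, SE 0.40, adjusted p = 1.15e-07). GPNMB passed the filter in GIMEN through the treated group alone, so that test was not independent of the filter. TYRP1 and PMEL, proteins of the pigment granule, fell in S2D30. TYRP1 went from between 54.6 and 64.7 CPM to between 2.76 and 4.39 CPM (log2 -4.17, SE 0.24, adjusted p = 1.23e-10), and PMEL from between 5.01 and 6.91 to between 1.58 and 2.82 CPM (log2 -1.46, SE 0.29, adjusted p = 0.000248). In GIMEN their log2 fold changes were 0.42 (adjusted p = 0.165) and 0.53 (adjusted p = 0.0653). EDNRB, the endothelin receptor of crest and glial precursors, rose by log2 values of 2.75 in S2D30 (SE 0.22, adjusted p = 9.58e-09) and 2.94 in GIMEN (SE 0.38, adjusted p = 3.27e-05). In GIMEN it passed the filter through the treated group alone. TYR, the enzyme that defines melanocytes, held at most 3 counts in every library.

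Of 13 cartilage genes, many of them known SOX9 targets, 7 were tested in SK-N-AS with 2 higher and 3 lower in S2D30 (median -0.51), and 5 in GIMEN with 2 higher and 2 lower (median -0.41). COL11A2, a cartilage collagen, rose in both lines, by log2 values of 1.36 (SE 0.29, adjusted p = 0.000462) and 2.96 (SE 0.17, adjusted p = 3.4e-08). MATN1, a cartilage matrix protein, rose by a log2 value of 1.26 in S2D30 (SE 0.28, adjusted p = 0.000814), and COL9A2 fell by 0.41 on the log2 scale in GIMEN (SE 0.12, adjusted p = 0.00736). COL9A3 fell by 1.93 in S2D30 (SE 0.27, adjusted p = 7.4e-06) on the log2 scale and rose by 0.79 in GIMEN (SE 0.16, adjusted p = 0.00106). HAPLN1, a link protein of cartilage matrix, fell in GIMEN from between 344 and 353 CPM to between 15.7 and 21.7 CPM (log2 -4.23, SE 0.10, adjusted p = 3.48e-11). COL2A1 and ACAN, the defining cartilage matrix genes, did not exceed 0.471 and 0.358 CPM.

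**Figure D4:**
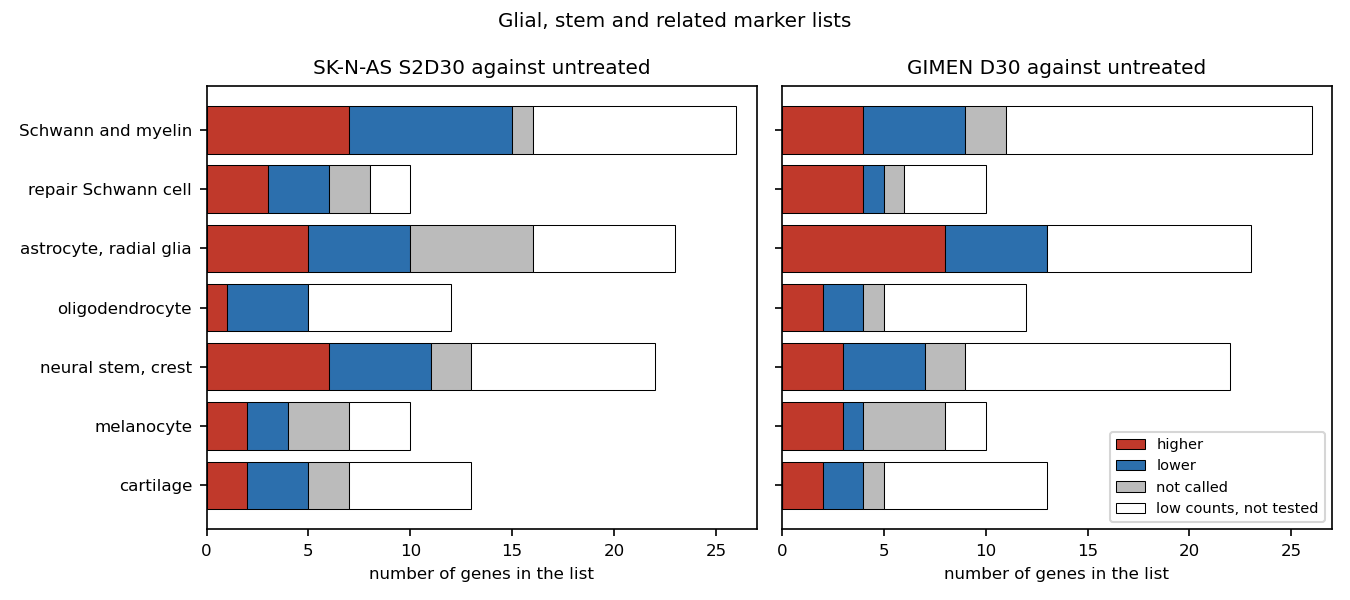
Number of genes (x axis) of each glial, stem or related list (y axis) that were called higher, called lower, not called or not tested for low counts, in SK-N-AS S2D30 (left) and GIMEN D30 (right) against untreated cells. Every list holds genes called in each direction in both lines, with 7 higher and 8 lower of 26 Schwann and myelin genes in S2D30. Of all genes tested, 33.8% were called higher and 36.5% lower in S2D30, and 35.5% and 36.0% in GIMEN.

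The genes whose log2 CPM followed each member most closely over all 22 libraries were found among genes with a mean of at least 5 CPM. The libraries share 2 lines and 6 groups, so these correlations describe the group pattern and carry no p. For SOX9 they were GOLT1B (Pearson r = 0.966), NDRG1 (0.954) and JUN (0.948), and for NES they were KIF26A (0.996), EBF3 (0.994) and CDK5R1 (0.994). For PMP22 they were MEPCE (0.870), KIZ (0.865) and GALC (0.862), and for GFAP they included PTPRA (0.966) and TTC19 (0.965). For S100B they were MARCKS (0.951), CALD1 (0.943) and PPP4R1 (0.936), and for CRYAB they were ZDHHC7 (0.986), SCUBE3 (0.982) and TMEM35A (0.979). PMP22 had the loosest match of the 6.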

How the data were processed

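RNA of 22 libraries was analysed from the raw counts per gene that the authors deposited, whose values were whole numbers. The aligner, counter, genome build, annotation and use of strand are not given in the sources used here. From these counts, genes were kept with filterByExpr (minimum count 10, minimum total 15), scaled by TMM and tested with glmQLFit and glmQLFTest of edgeR 4.0.16 in R 4.3.3, at a Benjamini-Hochberg adjusted p under 0.05 over all genes tested. One model held the 16 SK-N-AS libraries (15810 genes), one the 6 GIMEN libraries (13517 genes), and one the 14 untreated and 30-day libraries for differences between lines (16246 genes). Printed CPM used 1 TMM scaling of all 22 libraries. Total counts of 16456484 to 37506800 set the precision. Intervals and floors cover counting error only. The intervals rest on counts summed over the libraries of a group and leave out the spread between libraries. The reads carried no molecular identifiers.

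All 8 members were named, with the 3 best correlated genes of each member that passed the filter over all libraries (log2 CPM, prior count 2), and, per list and line, up to 2 largest called rises and falls after 30 days among genes with a mean of at least 1 CPM. A few genes that this rule names are not reported here. Members and lists were chosen with earlier results of these data known. The members were left out of their own family lists. GJB1, AQP4, GJB6, HES5, PAX7, TYR, COL2A1, ACAN, CCDC103, FAM187A and HSPB2 were named after their values were seen. Transcript lengths and overlaps came from the principal GENCODE transcripts of GRCh38, and promoters from RefSeq. Alternatives were other scaling (DESeq2 size factors, upper quartile), DESeq2 1.42.0, other filters (none, or a mean of at least 10 counts), a replicate block, fits of only the groups compared or of all 22 libraries, a term for replicates 3 and 4 in S1D4 and leaving out each library. The edgeR steps were tested on simulated counts.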

Additional observations from a re-analysis of the deposited data

Results flagged for a closer look

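In S2D4 cells, SOX10 stood at 0.188 CPM in replicate 3 and at 0 in the other 3 libraries, which set this library apart by Dixon's criterion. It rests on 4 counts, and with the other libraries tied at 0 the ratio is 1 whatever the count. In all, 27 combinations of member and SK-N-AS group were examined. The usual rate of about 1 in 20 set apart by chance does not apply to such tied counts.

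The 30-day change differed between GIMEN and SK-N-AS by the test of the difference itself (GIMEN minus SK-N-AS, log2, edgeR) for 4 members. The difference was 1.41 for PMP22 (adjusted p = 0.000118), 1.05 for GFAP (adjusted p = 0.0459), -1.25 for SOX9 (adjusted p = 1.05e-07) and 1.02 for NES (adjusted p = 9.3e-05). The GFAP call was lost in 14 of 21 alternative analyses, and GFAP reads cannot be told apart from those of CCDC103 and FAM187A. Dose, medium, serum and the first stage differ between the treatments of the lines and cannot be told apart from the line.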

How the results depend on the processing

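Of 38 tested results of members, 22 were called, and 20 of these were called in the same direction in every alternative run. The 20 include S100B in GIMEN, and S100B and CRYAB between the untreated lines. These genes entered the fits through the groups where they are high, so their stable calls are no independent check. The other 2 called results, both of GFAP, were the rise in S1D4 (log2 0.69 to 0.98, adjusted p 0.0243 to 0.136) and the difference of 30-day changes (0.86 to 1.17, adjusted p 0.0361 to 0.118). Of the 16 not called, 11 were called in no alternative and 5 were called in some. In S1D4 the count of members higher went from 2 to 1 with DESeq2, with no filter and with the compared groups alone, and was 1 to 2 when single libraries were left out. From S2D4 to S2D30 the count higher went from 0 to 1 with DESeq2 size factors, upper-quartile factors and a mean of at least 10 counts, and was 0 to 1 without single libraries. From S1D4 to S2D4 the count lower was 1 to 2 without single libraries. Between untreated lines the count lower went from 1 to 2 with DESeq2 size factors, upper-quartile factors, DESeq2, no filter and the compared groups alone, and was 1 to 2 without single libraries. For the difference of 30-day changes the count lower went from 1 to 2 with DESeq2, and was 1 to 2 without single libraries. Small values changed sign: in S2D4 against untreated cells PMP22 was -0.03 with upper-quartile factors and -0.06 to 0.15 without single libraries, NES was -0.03 and -0.21 to 0.17, and NES in GIMEN was -0.03 to 0.13. The causes were not tested. The labels do not say what the replicate numbers share. The deviations of each library from its group mean were correlated with those of the same-numbered library of another group. These correlations of deviations exceeded 0.1 in 3 of 4 pairs of untreated and S1D4 libraries (0 to 0.455). They did so in 2 of 4 pairs of untreated and S2D30 libraries (-0.125 to 0.267) and in at most 1 pair elsewhere. No comparison thus had all its pairs over 0.1. A replicate block changed 1 call of a member, the GFAP difference of 30-day changes (1.05, adjusted p = 0.103). With it the difference, GIMEN minus SK-N-AS, was called above 0 for 2 members in place of 3. The block left 2 members higher in S1D4 and 3 higher in GIMEN. Depth limits SOX10, SOX2, and S100B and CRYAB in SK-N-AS, where counts per library reached at most 17.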
